A study of Mus musculus with 21 samples.

Results

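Mouse nephron progenitors held for 48 h in aggregates with the compound BIO were compared, across all genes of the array, with progenitors taken straight from the cell sorter. The comparison uses 6 of the 21 arrays in the series, 3 of the 48 h BIO aggregates and 3 of the fresh progenitors, and these were chosen by their titles and not by any measured value. In the 48 h BIO aggregates, 40000 sorted cells per sample were pelleted together, grown in DMEM with 10% fetal bovine serum and 4 µM BIO, and given new medium with 4 µM BIO at 24 h. A second set of 3 aggregates was collected after the first 24 h of BIO, and another 3 aggregates received BIO for 24 h and then DMSO, the solvent, for another 24 h. The fresh progenitors had been neither aggregated nor cultured, and had seen neither BIO nor DMSO. All cells of all groups came from E16.5 kidneys of Six2GFPcre mice on a mixed background, in which a bacterial artificial chromosome expresses GFP and Cre from Six2 regulatory sequence, so the sort selects cells in which Six2 is or was recently active. The labels call the replicates biological without naming separate embryos, litters or cultures. The p-values therefore reflect only how the 21 arrays vary within their groups, and that variation may be technical. No aggregate kept in DMSO alone for 48 h was analysed here: BIO, time, aggregation and serum culture cannot be told apart in the main comparison.

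Nephron progenitors form the cap mesenchyme around each tip of the ureteric bud. The transcription factor Six2 keeps them undifferentiated, and Wnt9b from the bud acts through beta-catenin both to renew them and, with Wnt4, to turn some of them into pretubular aggregates, renal vesicles and then nephron epithelium. Without a Wnt signal, the kinase GSK3 marks beta-catenin for breakdown. BIO is a bromoindirubin oxime that inhibits GSK3, so that beta-catenin accumulates and joins TCF and LEF proteins on Wnt target genes. Indirubins are also known to bind the aryl hydrocarbon receptor.

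Values are array signals brought to one distribution across all 21 arrays, and differences are on the log2(signal + 1) scale with the standard error of the fit, which understates the change of dim genes. A gene counts as higher or lower where limma's moderated test, adjusted by Benjamini and Hochberg over all 18193 genes, gave a p under 0.05. Background was set at a signal of 41.8, the level that 95% of the measurements of 27 bacterial control probe sets stayed under. Where one group's mean lay under it, the change is given as a bound, the brighter group's mean over the higher of the background and the dim probe's own signal on each array, and written as "at least". The 21 arrays had median signals between 87.2 and 106 before that step and 76.0% to 79.6% of genes above background, and the mean correlation of an array with its group was 0.976 to 0.992. The ratio of the 3′ to the 5′ Gapdh control, a sign of RNA integrity and amplification, was 6.20 to 9.57 in 48 h BIO aggregates and 8.59 to 10.4 in fresh progenitors. The fresh arrays carried the markers of the labelled cell type: Six2, Eya1, Crym, Itga8 and Wt1 each gave a signal of at least 3232 on all 3 arrays, while Cited1 and Osr1 were dimmer and still above background.

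Of 18193 genes, 3342 (18.4%) were higher and 2726 (15.0%) were lower in 48 h BIO aggregates than in fresh progenitors, together 33.4%. With a change of at least 2-fold also required, 1203 were higher and 1018 lower. The median difference over all genes was 0.078. For 8018 genes (44.1%) the 3 arrays of one group lay wholly above the 3 of the other. Counts for the gene lists below are to be read against these shares. Genes were named by the size of their change in a list or over all genes, and Acta2, Aldh1a2, Atf4, Aurka, Bmp7, Ccnd1, Cdh1, Cdh6, Cdh16, Cnn2, Cyp1a1, Dkk1, Dll1, Epcam, Eya1, Fgf20, Gas1, Gdnf, Hoxa11, Itga8, Kdr, Krt19, Lgr5, Lgr6, Meox1, Myc, Nkd1, Nkd2, Nphs1, Pax8, Pcna, Pecam1, Ret, Sall1, Sesn1, Sfrp1, Sfrp2, Tie1, Tnfrsf19, Vcl, Wnt11, Wt1 and Znrf3 were chosen after their values were seen.

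**Figure D1:**
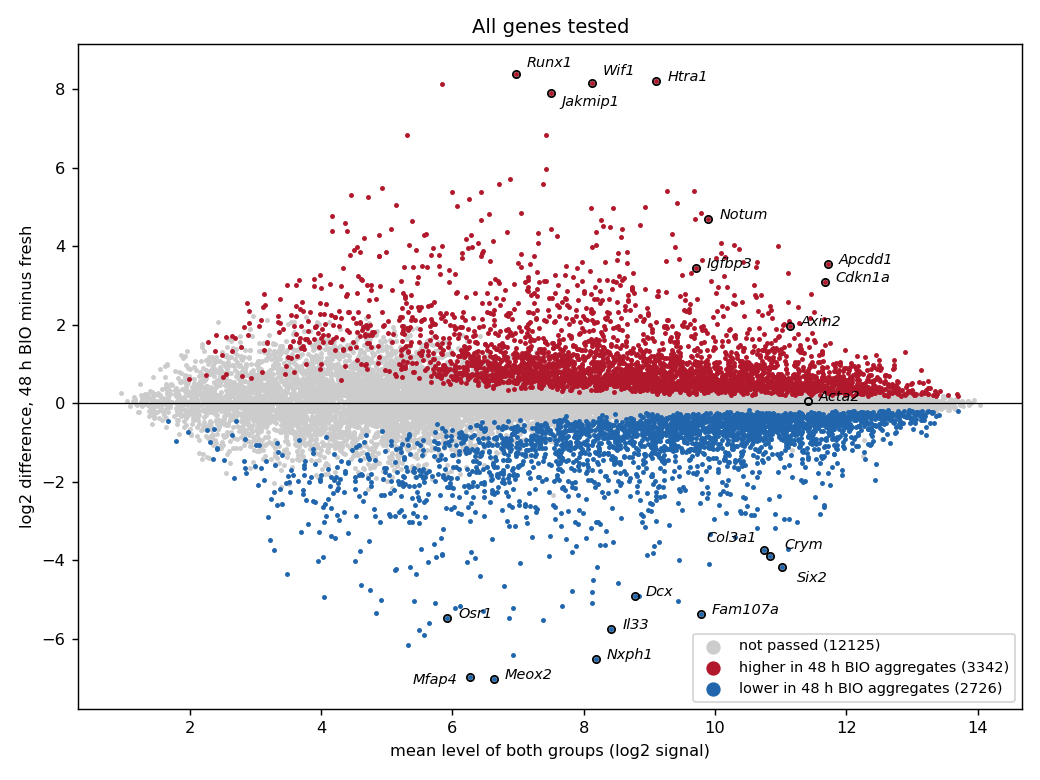
Each point is 1 of 18193 genes, with the mean level of the 48 h BIO aggregates and fresh progenitors on the x axis (log2 signal) and the difference, 48 h BIO minus fresh, on the y axis (log2). The 3342 red genes were higher and the 2726 blue genes lower in 48 h BIO aggregates, the grey genes did not pass, and Runx1, Wif1, Htra1 and Jakmip1 lie at the top with Meox2, Mfap4 and Nxph1 at the bottom.

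Targets and feedback inhibitors of canonical Wnt signalling stood mostly above their level in fresh cells. Of 23 measured genes on this list, 14 were higher, 4 were lower and 5 did not pass, with a median difference of 1.38; with all probe sets of a gene averaged, 2 were lower. Axin2, a scaffold of the beta-catenin destruction complex that is itself a Wnt target, gave signals of 5059, 4223 and 4165 in 48 h BIO aggregates, against 1131, 1185 and 1111 in fresh progenitors. Every 48 h BIO array was above every fresh array, a difference of 1.97 ± 0.17 (adjusted p = 1.62e-07), although its call was lost when all probe sets of the gene were averaged (adjusted p = 0.0976). Lef1, a partner of beta-catenin on DNA, read 2814, 2734 and 3124 in 48 h BIO aggregates and 368, 388 and 260.4 in fresh progenitors. That is a difference of 3.11 ± 0.17 (adjusted p = 1.27e-09) between groups that did not overlap. The zinc finger factor Sp5 had signals of 1955, 1675 and 1859.8 in 48 h BIO aggregates and 296, 269 and 258 in fresh progenitors, again without overlap and differing by 2.73 ± 0.46 (adjusted p = 2.18e-04).

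Inhibitors of the pathway were also higher. Notum, an enzyme that strips the lipid from Wnt proteins, read 5175, 4889.7 and 4545 in 48 h BIO aggregates and 218, 157 and 189 in fresh progenitors. All 3 treated arrays stood far above the fresh ones, 26.0-fold on average (adjusted p = 2.39e-11). Wif1, which binds Wnt ligands outside the cell, read 4522, 5060.3 and 4657 in 48 h BIO aggregates, against 21.2, 11.1 and 15.8 in fresh progenitors, where each array was under background. Its rise was at least 111-fold (adjusted p = 2.58e-10). The rise of Dkk4, a blocker of the Lrp co-receptors, was at least 7.37-fold (adjusted p = 6.38e-06). Rnf43, a ligase that removes Wnt receptors, rose at least 4.72-fold (adjusted p = 8.44e-06) and its relative Znrf3 by 0.89 ± 0.12 (adjusted p = 3.45e-05). Apcdd1, a membrane inhibitor of the pathway, read 11195, 11703 and 11736 in 48 h BIO aggregates and 1197, 730.5 and 1101 in fresh progenitors. Its groups lay 11.7-fold apart. Nkd1 and Nkd2, which bind Dishevelled, rose by 2.24 ± 0.13 and 1.46 ± 0.27 (adjusted p = 2.89e-09 and 4.80e-04).

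The receptors Lgr5 and Lgr6, which bind R-spondins, rose by 0.97 ± 0.21 and 1.38 ± 0.29, and Tnfrsf19, a receptor of the TNF family, by 1.76 ± 0.17 (adjusted p = 0.0018, 0.00166 and 4.81e-07). The 4 genes that fell include Myc and Ccnd1, growth genes that are Wnt targets in the intestine. Myc read 690.1, 710.4 and 642 in 48 h BIO aggregates and 2051, 1859.7 and 1655 in fresh progenitors, a fall of every array below the fresh range (-1.44 ± 0.22, adjusted p = 8.88e-05). Ccnd1 differed by -0.70 ± 0.21 (adjusted p = 0.0169). The secreted antagonist Sfrp2 fell, at 567, 719.6 and 790.2 in 48 h BIO aggregates and 2224, 1598 and 1765 in fresh progenitors (-1.43 ± 0.17, adjusted p = 7.09e-06), and so did Sfrp1 (-0.37 ± 0.10, adjusted p = 0.0104). Dkk1, another Lrp blocker, had values of 196, 247 and 460.1 in 48 h BIO aggregates and 181, 134 and 144 in fresh progenitors and did not pass (adjusted p = 0.0957).

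TCF and LEF proteins bind a short core, and 300-base windows around gene starts (250 bases before the start and 50 after, RefSeq on GRCm38.p6) were searched on both strands for the letters CTTTG followed by AA, AT, TA or TT. Of the Wnt list, 12 genes had a window and 4 of these (33.3%) held a match, against 18.9% of 27025 genes and 16.9% of 32851 windows. The share was not particular to the Wnt list: 5 of 14 G2 and M phase genes (35.7%), 2 of 5 neuronal genes (40%) and 2 of 7 leukocyte genes (28.6%) held a match. The 4 genes were Sp5, Tnfrsf19, Lef1 and Dkk1. The 3 windows below show the core, in capitals, at the start of a target that rose (Sp5, chr2:70474673-70474972, plus strand), of a receptor gene that rose (Tnfrsf19, chr14:61037938-61038237, minus strand) and of an inhibitor that did not pass (Dkk1, chr19:30549447-30549746, minus strand).
Sp5: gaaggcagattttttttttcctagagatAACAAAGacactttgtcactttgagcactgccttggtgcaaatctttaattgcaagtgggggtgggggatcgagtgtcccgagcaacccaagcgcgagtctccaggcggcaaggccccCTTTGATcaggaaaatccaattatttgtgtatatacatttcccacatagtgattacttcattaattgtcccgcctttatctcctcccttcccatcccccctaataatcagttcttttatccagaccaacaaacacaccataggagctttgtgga
Tnfrsf19: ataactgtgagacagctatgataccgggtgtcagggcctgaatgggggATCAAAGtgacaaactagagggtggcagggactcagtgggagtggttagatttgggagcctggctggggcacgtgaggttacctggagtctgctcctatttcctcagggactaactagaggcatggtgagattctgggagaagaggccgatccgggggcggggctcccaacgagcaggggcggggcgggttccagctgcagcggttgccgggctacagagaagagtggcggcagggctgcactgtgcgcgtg
Dkk1: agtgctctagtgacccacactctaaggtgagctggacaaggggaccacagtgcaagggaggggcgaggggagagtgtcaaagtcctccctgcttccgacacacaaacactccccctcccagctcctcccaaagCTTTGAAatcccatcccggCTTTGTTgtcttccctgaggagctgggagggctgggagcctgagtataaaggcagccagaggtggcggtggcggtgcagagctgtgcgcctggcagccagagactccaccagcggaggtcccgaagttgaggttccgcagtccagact
In Sp5 the matches begin at bases 29 and 147 of the window, in Dkk1 at bases 134 and 153, and in Tnfrsf19 at base 49. A match describes these letters only and is no measure of binding.

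**Figure D2:**
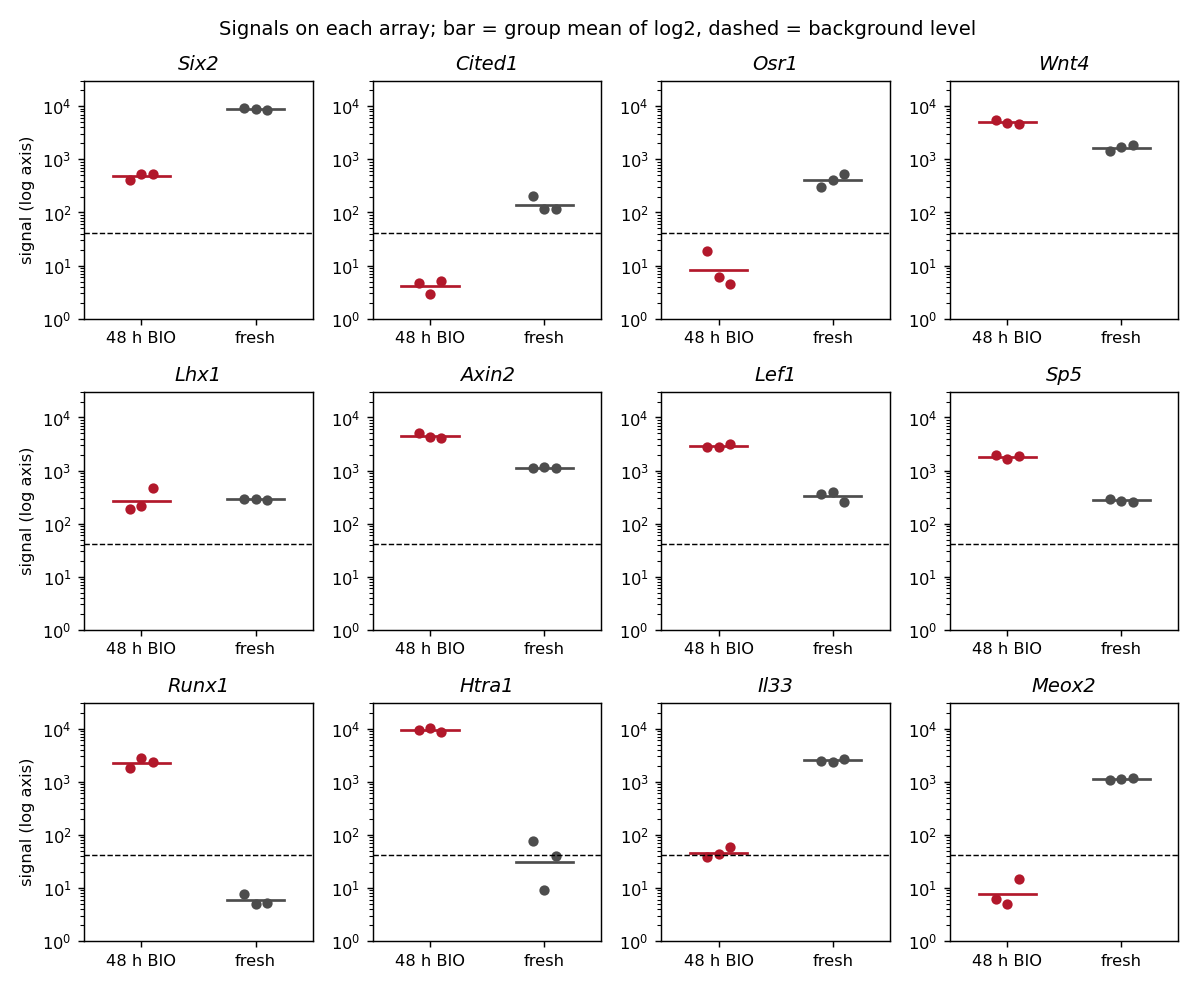
Signals of 12 genes on each array (log axis), with 48 h BIO aggregates in red on the left and fresh progenitors in grey on the right; the bar is the group mean of the log2 values and the dashed line the background level of 41.8. Six2, Cited1, Osr1, Il33 and Meox2 are lower on every 48 h BIO array, Wnt4, Axin2, Lef1, Sp5, Runx1 and Htra1 are higher on every one, and the groups overlap for Lhx1.

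Genes of the nephron progenitor state fell: 16 of 20 measured genes were lower, none was higher and 4 did not pass, with a median difference of -1.91. The count of lower genes ranged from 13 to 16 over the alternative settings. Six2 read 407, 526 and 541 in 48 h BIO aggregates and 9269.6, 8752 and 8565 in fresh progenitors. The fall of -4.18 ± 0.12 (adjusted p = 1.26e-12) left signals well above background on every 48 h BIO array. Cited1, a transcriptional co-regulator that marks the least committed progenitors, read 4.63, 2.92 and 5.15 in 48 h BIO aggregates, against 201, 114 and 116 in fresh progenitors, a fall of at least 3.26-fold to below background (adjusted p = 9.25e-08). Osr1, a factor of the early nephrogenic mesenchyme, fell at least 9.45-fold and was under background on all 3 treated arrays (adjusted p = 6.95e-06).

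The fall reached regulators, receptors and matrix proteins of the cap mesenchyme alike. Eya1, a co-activator that works with Six2, read 1206, 1159 and 1616 in 48 h BIO aggregates and 7708, 8279 and 7743 in fresh progenitors (-2.59 ± 0.14, adjusted p = 1.31e-09). Crym, a thyroid hormone binding protein enriched in progenitors, read 464, 464 and 491 in 48 h BIO aggregates and 7236, 6594 and 7491 in fresh progenitors (-3.90 ± 0.15, adjusted p = 1.81e-11). Rspo1, a secreted enhancer of Wnt signalling, fell by 3.62 ± 0.15 (adjusted p = 6.39e-11), the homeobox gene Meox1 by 3.04 ± 0.40 (adjusted p = 1.71e-05) and Gas1, a membrane protein of growth arrest and Hedgehog signalling, by 2.83 ± 0.077 (adjusted p = 4.44e-13). Wt1, needed for progenitors and later for podocytes, read 645, 497 and 689 in 48 h BIO aggregates and 3298, 3232 and 3254 in fresh progenitors (-2.43 ± 0.15, adjusted p = 3.02e-09). Itga8, the integrin that receives nephronectin, differed by -2.39 ± 0.12 (adjusted p = 2.49e-10).

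Several progenitor genes changed less or did not pass. Gdnf, the ligand that draws the ureteric bud, read 1009.8, 1077 and 987 in 48 h BIO aggregates and 2817, 2859 and 2662 in fresh progenitors (-1.44 ± 0.39, adjusted p = 0.00844). Sall1, a zinc finger repressor, differed by -0.44 ± 0.13 (adjusted p = 0.014) and the ligand Bmp7 by -0.39 ± 0.13 (adjusted p = 0.0341), a call that some settings ended. Fgf20, a survival factor of progenitors, had overlapping signals of 191, 254 and 243 in 48 h BIO aggregates and 242, 219.6 and 244 in fresh progenitors, and Hoxa11 differed by 0.037 ± 0.15; neither passed.

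The pretubular aggregate and renal vesicle list was divided. Of 19 measured genes, 9 were higher, 4 lower and 6 did not pass, with a median difference of 0.86. Only 8 of the higher genes had a mean above background in a group. With all probe sets of a gene averaged, 2 were lower. Wnt4, the inducer of the transition to epithelium, read 5645, 4856 and 4728 in 48 h BIO aggregates and 1449.9, 1713 and 1876 in fresh progenitors, groups that did not overlap (1.60 ± 0.18, adjusted p = 2.81e-06). Jag1, a Notch ligand of the renal vesicle, rose by 1.79 ± 0.21 (adjusted p = 4.84e-06). Papss2, a sulfate donor enzyme, rose 12.6-fold, with 3145, 3104 and 3289 in 48 h BIO aggregates and 289, 236 and 234 in fresh progenitors (adjusted p = 6.22e-08). The homeobox gene Emx2 rose by 2.48 ± 0.27 (adjusted p = 2.05e-06), Greb1 by 1.96 ± 0.43 (adjusted p = 0.00193) and the neuropeptide gene Npy by 2.21 ± 0.22 (adjusted p = 8.08e-07).

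Lhx1, the LIM factor that patterns the renal vesicle, read 192, 214 and 461 in 48 h BIO aggregates and 289, 292 and 279.8 in fresh progenitors. These groups overlapped and the difference of -0.10 ± 0.32 did not pass (adjusted p = 0.839). Fgf8, a growth factor of the pretubular aggregate, was counted as higher although its means were under background in both groups. Pax8, a paired box factor, and Cdh6, a cadherin of the early proximal nephron, were lower by -0.55 ± 0.11 and -0.70 ± 0.11 (adjusted p = 0.00122 and 1.37e-04). The Notch ligand Dll1 did not pass (-0.15 ± 0.23, adjusted p = 0.675).

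Podocyte genes were lower or did not pass: 5 of 10 measured genes fell, none rose, and the median difference was -1.33. Foxc2, a forkhead factor of podocyte precursors, read 93.7, 33.5 and 44.1 in 48 h BIO aggregates and 1536, 1233 and 1707 in fresh progenitors (-4.81 ± 0.29, adjusted p = 2.80e-09). Ptpro, a receptor phosphatase of the podocyte surface, fell by 3.38 ± 0.32 (adjusted p = 5.57e-07) and Tcf21, a basic helix-loop-helix factor shared with stroma, by 2.36 ± 0.13 (adjusted p = 1.25e-09). Synpo, an actin-binding protein of foot processes, fell at least 3.09-fold (adjusted p = 3.81e-04). Nephrin (Nphs1), the defining slit diaphragm protein, was near background in both groups, at 48.0, 67.7 and 54.3 in 48 h BIO aggregates and 71.2, 60.6 and 50.1 in fresh progenitors. The summed signal of the 10 genes was 4766 to 5592 in 48 h BIO aggregates and 8233 to 9315 in fresh progenitors.

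Tubule segment genes showed no common direction. Of 13 loop and distal tubule genes, 5 were higher and 3 lower, and the count of higher genes was 3 in several settings, as when only the arrays compared were fitted or when fresh replicate 2, 48 h BIO replicate 2 or 48 h BIO replicate 3 was left out. Irx3, an Iroquois factor of the intermediate and distal nephron, read 1078, 1289.5 and 1209 in 48 h BIO aggregates and 179.9, 149.8 and 132 in fresh progenitors (2.95 ± 0.21, adjusted p = 1.50e-08). Irx2 rose at least 2.05-fold (adjusted p = 6.71e-04) and the secreted protein gene Wfdc2 by 2.63 ± 0.27 (adjusted p = 1.59e-06). Umod, the uromodulin gene of the thick ascending limb, fell, with 58.3, 32.0 and 43.4 in 48 h BIO aggregates and 243, 189 and 230.1 in fresh progenitors (-2.32 ± 0.22, adjusted p = 5.57e-07). Of 11 proximal tubule genes 1 was higher, the glucose transporter Slc5a2 (0.78 ± 0.22, adjusted p = 0.0103), and 1 was lower, the endocytic receptor Cubn. The call for Cubn was lost in several settings and its groups overlapped.

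Epithelial and ureteric genes were more often higher than lower. On the list of epithelial junction genes and keratins, 10 of 21 measured genes were higher and 1 was lower (median difference 0.80). Ocln, the tight junction protein occludin, read 929.8, 737 and 891 in 48 h BIO aggregates, against 83.9, 27.8 and 23.3 in fresh progenitors. All treated arrays were far above the fresh ones, a rise of at least 15.8-fold (adjusted p = 1.99e-07). The claudin gene Cldn7 read 636, 943 and 1006 in 48 h BIO aggregates and 73.0, 28.4 and 38.3 in fresh progenitors (4.26 ± 0.52, adjusted p = 8.73e-06). Cldn6 rose by 2.56 ± 0.26, Marveld2, the tricellulin of tricellular contacts, by 2.63 ± 0.31, and the keratin Krt19 by 2.49 ± 0.27 (adjusted p = 1.35e-06, 6.47e-06 and 2.39e-06). Epcam, a surface protein of epithelia, rose by 1.59 ± 0.18 (adjusted p = 3.26e-06).

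Cdh1, the E-cadherin of tubule epithelium, did not pass, with overlapping signals of 202, 339.6 and 371 in 48 h BIO aggregates and 281, 102 and 91.4 in fresh progenitors (adjusted p = 0.181). Cdh16, a kidney epithelial cadherin, did not pass either (adjusted p = 0.407). Cldn1 fell at least 4.02-fold (adjusted p = 1.04e-04), a call lost when all its probe sets were averaged (adjusted p = 0.160).

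Of 14 ureteric bud and collecting duct genes, 7 were higher and 1 was lower (median difference 0.63). Gata3, a zinc finger factor of the nephric duct, read 203, 55.0 and 77.8 in 48 h BIO aggregates and 4.53, 2.47 and 4.13 in fresh progenitors, with each fresh array under background, a rise of at least 2.26-fold (adjusted p = 7.23e-05). Krt23, an acidic keratin, rose at least 26.7-fold (adjusted p = 2.06e-11) and Hs3st3a1, a heparan sulfate sulfotransferase, at least 4.76-fold (adjusted p = 2.11e-04). Tfap2a rose by 1.21 ± 0.21 (adjusted p = 3.12e-04), a call lost when all its probe sets were averaged (adjusted p = 0.239). Of the defining genes of the bud tip, the receptor Ret read 135, 162 and 184 in 48 h BIO aggregates and 101, 95.2 and 112 in fresh progenitors (0.63 ± 0.20, adjusted p = 0.024), and Wnt11 did not pass (adjusted p = 0.0837). Calb1, a calcium-binding protein of the bud, fell, with 73.9, 70.0 and 67.9 in 48 h BIO aggregates and 430.3, 333 and 239 in fresh progenitors (-2.19 ± 0.29, adjusted p = 2.42e-05). The summed signal of the list was 3625 to 4061 in 48 h BIO aggregates, with 12 of 14 genes above background, and 1653 to 2077 in fresh progenitors, with 8 of 14. Its part in the epithelial result was not tested.

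Markers of interstitial stroma were lower nearly throughout. Of 15 measured genes 14 fell, 1 rose and the median difference was -1.87, and the summed signal was 8188 to 9042 in 48 h BIO aggregates and 27069 to 29480 in fresh progenitors. In whole samples, fewer cells of a type and less RNA per cell cannot be told apart. Foxd1, the forkhead factor that defines cortical stroma, was measurable in both groups, at 337, 448 and 307 in 48 h BIO aggregates and 2084, 2097 and 2126 in fresh progenitors (-2.55 ± 0.15, adjusted p = 1.80e-09). The fibrillar collagen gene Col3a1 read 532, 489 and 403 in 48 h BIO aggregates and 6681, 6014 and 6151 in fresh progenitors, and these groups were -3.73 ± 0.10 apart (adjusted p = 4.44e-13). Col1a2 fell by 2.84 ± 0.20 (adjusted p = 1.98e-08) and the matrix protein gene Postn by 2.54 ± 0.30 (adjusted p = 6.30e-06). Aldh1a2, an enzyme of retinoic acid synthesis, differed by -0.72 ± 0.077 (adjusted p = 1.85e-06). The gene that rose, Smoc2, lost its call in many settings.

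Some genes of leukocytes and endothelium had means above background in both groups, and how many such cells were present was not tested. Of 12 leukocyte genes 4 were lower, 3 of them with a mean above background in a group. With fresh replicate 1 or 48 h BIO replicate 3 left out, 2 were lower. The receptor Csf1r of macrophages read 382, 349 and 330.3 in 48 h BIO aggregates and 899, 671 and 741 in fresh progenitors (-1.11 ± 0.17, adjusted p = 7.47e-05), and the chemokine receptor Cx3cr1 fell by 1.18 ± 0.30 (adjusted p = 0.00638). Of 7 erythroid genes none had a mean above background in 48 h BIO aggregates and 2 had one in fresh progenitors: Alas2, the first enzyme of erythroid heme synthesis, fell at least 4.08-fold (adjusted p = 4.00e-06). Among 11 endothelial genes, 2 were higher and 3 lower. Plvap, a protein of endothelial fenestrae, fell at least 4.72-fold (adjusted p = 2.14e-07), while Flt1, a receptor for VEGF, rose at least 7.9-fold, with 368, 473 and 221 in 48 h BIO aggregates and 16.4, 17.1 and 38.2 in fresh progenitors (adjusted p = 6.92e-05). Their defining genes Pecam1 and Tie1 had means under background in both groups, and Kdr did not pass (adjusted p = 0.982).

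The serum response and contractile genes did not move as one. Of 19 measured genes 7 were higher and 3 lower than in fresh progenitors (median difference 0.21). Ccn2, a matrix protein gene driven by YAP and serum response factor, read 958, 941 and 937 in 48 h BIO aggregates and 219, 172 and 164 in fresh progenitors. The treated arrays were nearly equal to one another and 5.13-fold above the fresh mean (adjusted p = 2.15e-10). Tagln, a smooth muscle actin-binding protein, rose by 2.14 ± 0.31 (adjusted p = 5.04e-05). Tpm2, a tropomyosin, fell, with 668, 738 and 536 in 48 h BIO aggregates and 6288, 5435 and 5777 in fresh progenitors (-3.18 ± 0.15, adjusted p = 2.49e-10), and the myosin light chain Myl9 fell by 1.74 ± 0.20 (adjusted p = 4.95e-06). Acta2, smooth muscle actin, overlapped at 2429.96, 3106 and 2809.98 in 48 h BIO aggregates and 2689.6, 2786 and 2597 in fresh progenitors and did not pass (adjusted p = 0.78).

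The CArG box, the site bound by serum response factor, was searched by its usual definition in the same 300-base windows, on both strands. Of 16 contractile genes with a window 3 (18.8%) held a match, against 1.81% of 27025 genes and 1.63% of 32851 windows. A few other lists came near this share, with 2 of 13 immediate early genes (15.4%) and 1 of 6 aryl hydrocarbon receptor genes. So did 1 of 5 erythroid and 1 of 5 neuronal genes. Every other list held the box in 1 gene or none. The 3 contractile genes were Vcl, which rose by 0.66 ± 0.11 (adjusted p = 2.54e-04), Myl9, which fell, and Cnn2, which did not pass. The windows of Vcl (chr14:20929148-20929447, plus strand) and Myl9 (chr2:156775214-156775513, plus strand) are shown because each carries a box of this definition, in capitals, with different letters inside it, and the genes differ in direction.
Vcl: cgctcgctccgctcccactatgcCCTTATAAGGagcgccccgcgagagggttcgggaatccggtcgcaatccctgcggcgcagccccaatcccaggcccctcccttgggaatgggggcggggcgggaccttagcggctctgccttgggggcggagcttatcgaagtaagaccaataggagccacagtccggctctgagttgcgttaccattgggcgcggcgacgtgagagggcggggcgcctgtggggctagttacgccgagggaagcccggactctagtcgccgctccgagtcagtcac
Myl9: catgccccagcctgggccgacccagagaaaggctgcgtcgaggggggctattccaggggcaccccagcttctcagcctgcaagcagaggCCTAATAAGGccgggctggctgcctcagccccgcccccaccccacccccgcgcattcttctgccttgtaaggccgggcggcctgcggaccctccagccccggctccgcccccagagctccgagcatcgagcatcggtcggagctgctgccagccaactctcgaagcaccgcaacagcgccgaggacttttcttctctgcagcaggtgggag
The box begins at base 24 in Vcl and at base 90 in Myl9.

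Mitotic genes were lower as a group. Of 17 measured G2 and M phase genes 16 fell, none rose and the median difference was -0.88, and 10 fell when only the arrays compared were fitted. Mki67, the Ki-67 antigen of cycling cells, read 2397, 2656 and 4360.2 in 48 h BIO aggregates and 7963, 8429 and 8153 in fresh progenitors (-1.43 ± 0.17, adjusted p = 4.67e-06). Replicate 3 of the 48 h BIO aggregates was above the other 48 h BIO arrays and still below every fresh array. Cenpf, a kinetochore protein, had the same pattern, with 1508, 1844 and 2840.2 in 48 h BIO aggregates and 5308, 5310.3 and 4938 in fresh progenitors (-1.38 ± 0.16, adjusted p = 6.78e-06). The spindle protein Nusap1 fell by 1.24 ± 0.17, the motor Kif11 by 1.13 ± 0.17 and the cyclin Ccnb2 by 1.08 ± 0.15 (adjusted p = 2.38e-05, 6.58e-05 and 4.61e-05). Aurka, the gene that did not pass, differed by -0.43 ± 0.17 (adjusted p = 0.0551).

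S phase genes changed less. Of 18 measured genes 9 were lower and 1 higher, with a median difference of -0.23, and 4 were lower when only the arrays compared were fitted. The licensing factor Cdc6 fell by 0.79 ± 0.15 (adjusted p = 6.30e-04), and Rrm2, a subunit of ribonucleotide reductase, by 0.73 ± 0.089 (adjusted p = 9.12e-06). Cyclin E2 (Ccne2) was the gene that rose (0.75 ± 0.17, adjusted p = 0.00277). Pcna, the replication clamp, did not pass (0.15 ± 0.074, adjusted p = 0.137).

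Of 7 inhibitors of cyclin-dependent kinases 2 were higher and none lower. Cdkn1a (p21) read 10002, 9441 and 9160.3 in 48 h BIO aggregates and 1099, 1133 and 1124 in fresh progenitors, groups 8.51-fold apart (adjusted p = 1.11e-11). Cdkn2b (p15) rose at least 4.4-fold (adjusted p = 5.37e-06). The other 5 measured inhibitors did not pass. Cdkn1a is also a target of p53, and on that list 8 of 13 genes were higher and 1 was lower (median difference 0.59). Pmaip1, a pro-apoptotic BH3 protein, rose at least 2.98-fold, Perp by 2.17 ± 0.23 and Phlda3 by 1.55 ± 0.13 (adjusted p = 1.56e-06, 1.51e-06 and 1.42e-07). Sesn1 was the gene that fell (-0.91 ± 0.16, adjusted p = 3.43e-04).

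Amino acid and unfolded protein response genes were higher: 12 of 16 measured genes rose and none fell (median difference 0.73). Chac1, an enzyme that degrades glutathione, read 589, 651 and 672 in 48 h BIO aggregates and 150.3, 110.4 and 104 in fresh progenitors (2.40 ± 0.20, adjusted p = 1.50e-07). Asns, asparagine synthetase, read 4856, 4308 and 4693 in 48 h BIO aggregates and 1108, 1127 and 1041 in fresh progenitors (2.08 ± 0.12, adjusted p = 1.25e-09). The cystine transporter Slc7a11 rose at least 3.09-fold (adjusted p = 2.68e-06). Atf4, a transcription factor of the amino acid response, did not pass (-0.015 ± 0.10, adjusted p = 0.924).

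Sterol and fatty acid synthesis genes were also higher, 11 of 15 with none lower (median difference 0.56). Scd1, a fatty acid desaturase, rose 4.33-fold (adjusted p = 1.03e-07), Sc5d by 1.15 ± 0.14 and Cyp51, a sterol demethylase, by 0.86 ± 0.12 (adjusted p = 7.07e-06 and 3.10e-05). Glycolysis and hypoxia genes went in both directions, with 6 of 17 higher and 5 lower, the last count being 3 with all probe sets of a gene averaged. Pfkl, the liver phosphofructokinase, fell by 2.22 ± 0.25 and the pyruvate dehydrogenase kinase Pdk1 by 2.07 ± 0.15 (adjusted p = 3.51e-06 and 2.55e-08). Other probe sets of Pfkl differed less, by -0.77 ± 0.15 and -0.30 ± 0.14, and the latter did not pass (adjusted p = 0.00116 and 0.136). Aldoc, a brain aldolase, rose by 1.25 ± 0.17 (adjusted p = 2.31e-05).

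Of 8 genes of the aryl hydrocarbon receptor response, 3 were higher and 2 lower, and none was lower with all probe sets of a gene averaged. Cyp1a1, its most used marker, read 21.5, 89.9 and 96.9 in 48 h BIO aggregates and 29.1, 4.43 and 44.4 in fresh progenitors, overlapping and not passing (adjusted p = 0.225). Cyp1b1, Tiparp and Nqo1 rose by 0.94 ± 0.11, 0.87 ± 0.062 and 0.96 ± 0.22 (adjusted p = 9.18e-06, 2.16e-08 and 0.00297).

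Signalling lists other than Wnt were mixed. Of 16 BMP and TGF-beta genes 10 were higher and 1 lower (median difference 0.78). Inhba, the activin A subunit, rose at least 4.88-fold, with 327, 184 and 149.6 in 48 h BIO aggregates and 9.41, 9.19 and 10.8 in fresh progenitors (adjusted p = 5.69e-08). Bambi, a decoy receptor, rose by 2.66 ± 0.17, the activin antagonist Fst by 2.11 ± 0.14 and Tgfb2 by 2.02 ± 0.26 (adjusted p = 6.08e-09, 6.08e-09 and 1.67e-05). Id1, an inhibitor of helix-loop-helix factors that BMP induces, rose by 1.71 ± 0.20 (adjusted p = 5.25e-06).

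Of 16 Notch genes 2 were higher, the ligand Jag1 and the effector Hey1 (1.07 ± 0.22, adjusted p = 0.00105), and 6 were lower, among them Hes1, at 398, 302 and 488 in 48 h BIO aggregates and 754, 717 and 875 in fresh progenitors (adjusted p = 4.31e-04), and the feedback gene Nrarp (-1.44 ± 0.34, adjusted p = 0.0037). Of 14 FGF genes 3 were higher and 5 lower. Fgf9, a ligand that maintains progenitors, rose by 1.42 ± 0.29, while the receptor Fgfr1 fell by 1.30 ± 0.13 and the phosphatase Dusp6 by 0.97 ± 0.11 (adjusted p = 0.00107, 9.86e-07 and 2.44e-06). Another probe set of Fgf9 differed by 0.38 ± 0.26 and did not pass (adjusted p = 0.311 in limma's test over all probe sets). Of 11 insulin-like growth factor genes 2 rose and 4 fell, and 4 rose with all probe sets of a gene averaged. The binding protein Igfbp3 read 2428, 3109 and 2753 in 48 h BIO aggregates and 214, 285 and 261 in fresh progenitors (3.45 ± 0.17, adjusted p = 3.54e-10), and the growth factor Igf2 fell by 1.11 ± 0.11 (adjusted p = 8.25e-07).

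Immediate early genes were mostly lower than in cells straight from the sort, with 9 of 16 lower and 4 higher. Fos read 1199, 1469 and 1198 in 48 h BIO aggregates and 8023, 8205 and 8068 in fresh progenitors (-2.66 ± 0.17, adjusted p = 6.71e-09). Fosb fell by 3.08 ± 0.22 and Egr1 by 1.97 ± 0.12, while the stress factor Atf3 rose by 2.45 ± 0.22 (adjusted p = 2.17e-08, 4.58e-09 and 3.44e-07). Of 14 mesenchymal regulators and matrix genes 3 rose, among them the homeobox gene Prrx1 (2.35 ± 0.15, adjusted p = 3.89e-09) and Twist1 (2.33 ± 0.28, adjusted p = 8.26e-06), and 5 fell, among them Snai2 (-2.13 ± 0.15, adjusted p = 1.22e-08) and Zeb2 (-1.95 ± 0.24, adjusted p = 8.53e-06). Of 17 basement membrane genes 5 rose, 3 with all probe sets of a gene averaged, and 4 fell. Lama1, the laminin chain of early nephron epithelium, rose by 1.88 ± 0.25 and Nid2, a nidogen, fell by 2.75 ± 0.16 (adjusted p = 2.15e-05 and 1.88e-09). The neuronal list held 4 higher genes of 10, 3 of them with a mean above background in a group, and 2 lower ones. Dcx, a microtubule protein of migrating neurons, read 47.5, 94.5 and 108 in 48 h BIO aggregates and 2428, 2575 and 2266 in fresh progenitors (-4.92 ± 0.22, adjusted p = 1.01e-10). Of 7 interferon genes 1 rose, Mx1, at least 8.06-fold (adjusted p = 1.13e-07).

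**Figure D3:**
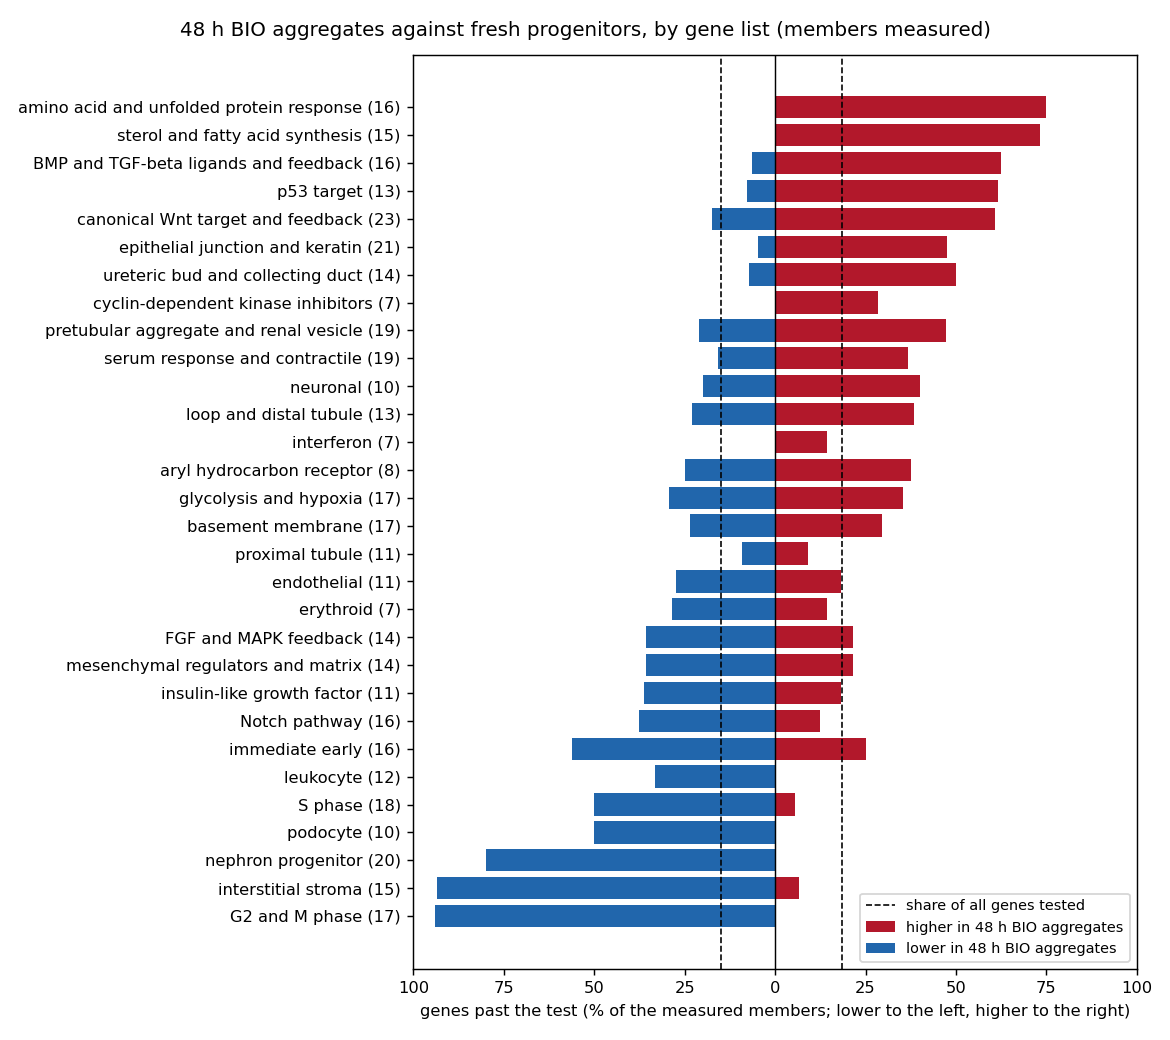
For each of 30 gene lists, with the number of measured members in brackets, the red bar to the right is the percentage higher and the blue bar to the left the percentage lower in 48 h BIO aggregates than in fresh progenitors. Dashed lines mark the shares over all 18193 genes, 18.4% higher and 15.0% lower; amino acid response and sterol genes stand at the top and progenitor, stromal and G2 and M phase genes at the bottom.

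The largest changes of all lay partly outside these lists. Runx1, a Runt-family transcription factor of blood and other lineages, read 1784, 2777 and 2382 in 48 h BIO aggregates, against 7.7, 4.88 and 5.26 in fresh progenitors. Each fresh array was far under background, and the rise was at least 53.2-fold (adjusted p = 1.83e-12). Htra1, a secreted serine protease, read 9419.5, 10205 and 8789.7 in 48 h BIO aggregates and 76.6, 9.27 and 40.5 in fresh progenitors. One fresh array was above background and the group mean below it, and the rise was at least 181-fold (adjusted p = 1.88e-09). Jakmip1, a microtubule-binding protein, rose at least 65.1-fold and Pcolce2, an enhancer of procollagen cleavage, at least 42.9-fold (adjusted p = 2.69e-08 and 4.89e-08). Dcc, the netrin receptor, rose at least 31.7-fold, the protease Prss56 at least 22.4-fold and the homeobox gene Dlx5 at least 19.7-fold (adjusted p = 1.22e-08, 3.29e-07 and 1.80e-05).

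Among the largest falls, Meox2, a homeobox gene of mesoderm, read 6.09, 4.93 and 14.8 in 48 h BIO aggregates and 1082, 1133 and 1176 in fresh progenitors. It fell at least 26.4-fold, to under background on each array (adjusted p = 1.87e-10). The alarmin Il33 read 37.5, 43.2 and 58.6 in 48 h BIO aggregates and 2501, 2397 and 2675 in fresh progenitors (-5.76 ± 0.14, adjusted p = 2.82e-13). Nxph1, a ligand of neurexins, fell at least 65.2-fold, the microfibril protein gene Mfap4 at least 20.2-fold and the protocadherin Pcdh8 at least 26.3-fold (adjusted p = 2.41e-11, 7.28e-12 and 2.69e-07). Slc26a7, an anion exchanger, fell at least 26.5-fold and Fam107a by -5.37 ± 0.25 (adjusted p = 1.80e-09 and 1.54e-10).

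Whether these distances from fresh cells differed after the first and the second day of BIO was tested directly between 48 h and 24 h BIO aggregates, a difference in which the fresh arrays play no part. Of all genes 1464 (8.05%) were higher and 2328 (12.8%) lower at 48 h, together 20.8%, and the groups did not overlap for 33.9%. The RNA controls moved with these groups. The Gapdh ratio was 6.20 to 9.57 in 48 h BIO aggregates and 11.4 to 15.2 in 24 h BIO aggregates. The 3′ beta-actin control, a level and not a ratio, read 6344 to 11267 at 48 h and 2669 to 5409.7 at 24 h. The 3′ to 5′ ratio of beta-actin was 7.32 to 14.1 at 48 h and 15.5 to 19.6 at 24 h. With the Gapdh ratio as a covariate 651 genes were higher and 528 lower, and with the beta-actin control 832 and 684, so the excess of lower genes turned round in both. The beta-actin covariate is a signal level, so its fit cannot separate RNA quality from a change in beta-actin expression between the groups. The part of RNA quality in single genes was not tested beyond the fit with the Gapdh ratio. Six2 fell again, at 407, 526 and 541 in 48 h BIO aggregates and 1906, 1675 and 1804 in 24 h BIO aggregates (-1.88 ± 0.12, adjusted p = 5.43e-08). Of the progenitor list 9 of 20 genes were lower at 48 h and none higher, and 7 were lower with the Gapdh ratio as a covariate. On the Wnt list 6 of 23 genes were higher at 48 h and 1 was lower. The Gapdh ratio as a covariate left 4 higher and the beta-actin control 5, with none lower in either fit. Wif1 read 4522, 5060.3 and 4657 in 48 h BIO aggregates and 238, 374 and 174 in 24 h BIO aggregates (4.24 ± 0.40, adjusted p = 1.46e-06), and Apcdd1 rose by 2.10 ± 0.19 (adjusted p = 1.16e-06). Axin2, Lef1, Sp5 and Notum did not pass between the days (adjusted p = 0.168, 0.115, 0.911 and 0.189).

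All 17 measured G2 and M phase genes were lower at 48 h than at 24 h of BIO (median difference -1.36). With the Gapdh ratio as a covariate 15 were lower, and 14 with the beta-actin control. With all probe sets of a gene averaged, or only the arrays compared fitted, 13 were. Mki67 was among those that lost their call with each RNA control (adjusted p = 0.0820 and 0.0622). Of 16 amino acid response genes, 7 were lower and 2 higher. The Gapdh ratio as a covariate left 6 lower and none higher, and the beta-actin control 5 lower and 1 higher. Chac1 fell to 589, 651 and 672 in 48 h BIO aggregates, against 1946, 2720.04 and 2059 in 24 h BIO aggregates (-1.80 ± 0.20, adjusted p = 9.30e-06). Among 21 epithelial genes 8 were higher at 48 h, 7 of them with a mean above background in a group, and none lower. The higher genes numbered 6 with the Gapdh ratio and 7 with the beta-actin control as a covariate. Among the 4 largest gains of the second day were C1qtnf3, a complement-like secreted protein, with 5234, 6077 and 4854 in 48 h BIO aggregates and 54.7, 70.7 and 76.2 in 24 h BIO aggregates (6.31 ± 0.29, adjusted p = 1.45e-09), and Pygl, glycogen phosphorylase (5.74 ± 0.24, adjusted p = 1.13e-09). The others, Krt33a and Prss56, had 24 h means under background and rose at least 9.87-fold and 19.7-fold (adjusted p = 8.02e-06 and 2.49e-05).

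Whether the distance at 48 h depended on keeping BIO was tested against the aggregates moved to DMSO on the second day. Here 2021 genes (11.1%) were higher and 1690 (9.29%) lower with BIO kept, together 20.4%, and the groups did not overlap for 31.9%. The balance turned round with the deposited scaling (1629 higher, 1873 lower) and with the beta-actin control as a covariate (1385 higher, 1691 lower). Here too the Gapdh ratio did not overlap. It was 6.20 to 9.57 in 48 h BIO aggregates and 9.99 to 12.4 in aggregates moved to DMSO. The level of the 3′ beta-actin control did not overlap either. It was 6344 to 11267 with BIO kept and 11973 to 12844.5 after the move to DMSO. The 3′ to 5′ ratio of beta-actin did overlap, at 7.32 to 14.1 with BIO kept and 6.26 to 7.98 after the move. Of 23 Wnt genes 14 were higher and 2 lower. Sp5 read 1955, 1675 and 1859.8 in 48 h BIO aggregates and 44.2, 72.1 and 39.5 in aggregates moved to DMSO (5.16 ± 0.46, adjusted p = 5.05e-07). Fresh cells, at 296, 269 and 258, lay between them. Progenitor genes divided, 8 of 20 higher and 5 lower with BIO kept, and 5 were higher with the beta-actin control as a covariate or without 48 h BIO replicate 2. Gdnf read 1009.8, 1077 and 987 in 48 h BIO aggregates and 191, 84.0 and 34.2 after the move to DMSO (3.62 ± 0.39, adjusted p = 3.63e-06), and Fgf20 read 191, 254 and 243 in 48 h BIO aggregates and 8.42, 2.47 and 6.92 after the move, at least 5.34-fold higher with BIO kept (adjusted p = 1.48e-08). Six2 was lower with BIO kept (-0.84 ± 0.12, adjusted p = 1.04e-04), as was Wt1 (-2.69 ± 0.15, adjusted p = 2.49e-09). Lhx1 was lower with BIO kept, at 192, 214 and 461 in 48 h BIO aggregates and 934, 1243 and 1886 after the move to DMSO (-2.28 ± 0.32, adjusted p = 5.97e-05).

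Of 19 contractile genes 17 were lower with BIO kept than in aggregates moved to DMSO, and none was higher (median difference -2.03). Acta2, whose level did not differ detectably from fresh cells, read 2429.96, 3106 and 2809.98 in 48 h BIO aggregates and 11238, 10894 and 9975 in aggregates moved to DMSO (-1.95 ± 0.094, adjusted p = 5.50e-10). Ccn2 stood between the other groups, at 958, 941 and 937 in 48 h BIO aggregates, 8273, 9334 and 7568 after the move to DMSO and 219, 172 and 164 in fresh progenitors. All 17 measured G2 and M phase genes were lower with BIO kept (median difference -1.37). Cdh1 was lower with BIO kept, at 202, 339.6 and 371 in 48 h BIO aggregates and 1133, 1068 and 2205 after the move to DMSO (-2.23 ± 0.60, adjusted p = 0.0132).

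**Figure D4:**
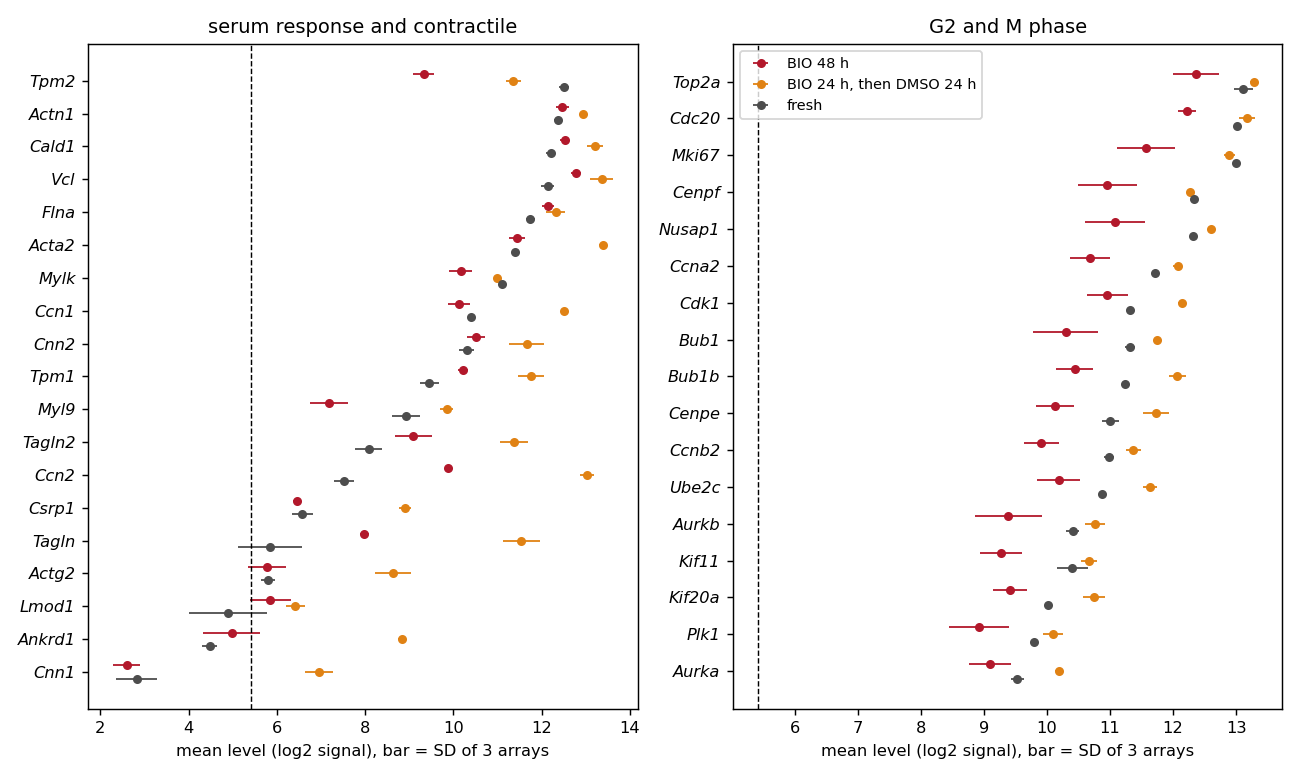
Mean log2 signal of the 19 contractile genes (left) and 17 G2 and M phase genes (right) in 48 h BIO aggregates (red), aggregates given BIO for 24 h and then DMSO for 24 h (orange) and fresh progenitors (grey); bars are the SD of 3 arrays and the dashed line is background. The orange points lie to the right of the red ones for all genes shown, and the red and grey points lie close together for Acta2, Actn1, Cnn2, Csrp1 and Actg2.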

How the data were processed

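RNA from 3 arrays of each of 7 groups was measured on 45101 probe sets. Per the labels' protocols, RNA was isolated with a kit for small samples and amplified in 2 rounds. The authors deposited linear intensity values between 0.1 and 18025.33; their software and scaling: not given in the sources used here. Each value was taken as log2(value + 1) and quantile normalized over all 21 arrays. Of the probe sets, 34945 had 1 gene symbol through the platform annotation and RefSeq, 932 had several and 9160 none, and 64 were controls. For the 9010 genes with more than 1 probe set, the one with the highest mean over all arrays was used. limma 3.58.1 in R 4.3.3 fitted 1 mean per group, with Benjamini-Hochberg adjustment over all genes; p-values are two-sided. On simulated data with independent noise, changes were planted in genes above the median level, 50 per size. For the comparison with fresh progenitors, 44% of changes of 0.5 (log2), 92% of 1 and 100% of 2 were recovered. Of 176 calls 10 were false. Far fewer genes were changed than were called in the real data, so these shares need not hold there or for dim genes. The deposited intensities give no counts, so the number of arrays limits the precision. Samples were grouped by their titles. Genes named were the 12 largest rises and 12 largest falls without overlap and above background in a group (6 each between the 48 h BIO aggregates and the other aggregates), up to 5 of each of 30 lists past the threshold, 8 fixed genes, and others stated as chosen later; lists and members were chosen with earlier results of these data known. Of 440 listed symbols 418 were measured, and the others were not analysed here. Alternatives covered scaling, pseudocount, dim genes, probe sets, arrays fitted, weights, priors, RNA controls as covariates, a replicate block and each array left out.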

Additional observations from a re-analysis of the deposited data

Results flagged for a closer look

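For 12 of the named genes that passed, the fresh arrays all lay between the arrays of the 48 h BIO aggregates and those of the aggregates moved to DMSO, so that the groups at 48 h stood on opposite sides of fresh cells, and the difference between the 48 h groups passed limma's test after adjustment. Over all 18193 genes 180 had this pattern with BIO kept higher and 251 with BIO kept lower, and the named genes had been chosen for the size of their changes in these comparisons. Fitted differences are on the log2 scale; where a group was under background they are no measure of size, and a bound is given. With BIO kept, Sp5 was higher by 5.16, Axin2 by 2.83 and Tek by 2.46 (adjusted p = 5.05e-07, 5.55e-09 and 5.06e-05). Krt33a was at least 9.87-fold higher (fitted difference 6.99, adjusted p = 9.07e-07). Krt33a, a hair keratin gene, gave 365, 501 and 411 in 48 h BIO aggregates, 2.38, 2.32 and 2.26 in aggregates moved to DMSO and 2.44, 3.17 and 2.67 in fresh progenitors; the last 2 groups were under background on every array, so their order has no meaning. Tek, an angiopoietin receptor, read 199.7, 216 and 364 in 48 h BIO aggregates, 36.7, 34.0 and 71.0 in aggregates moved to DMSO and 146, 130.4 and 110.01 in fresh progenitors.

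The other 8 genes were lower with BIO kept. For 4 of them the 48 h BIO mean was under background. Slc26a7 was at least 63.6-fold lower and Ldlrad4 at least 7.72-fold (fitted differences -6.79 and -5.87, adjusted p = 4.21e-10 and 1.34e-04). The podocyte gene Clic5 was at least 8.16-fold lower and the claudin Cldn1 at least 7.52-fold (fitted differences -4.17 and -3.56, adjusted p = 7.47e-05 and 9.28e-06). Myl9 read 106, 191 and 147 in 48 h BIO aggregates, 979.5, 980.3 and 818 in aggregates moved to DMSO and 601, 390.1 and 485 in fresh progenitors, a difference of -2.67 between the 48 h groups (adjusted p = 8.48e-08). Nid1, a nidogen of basement membranes, differed by -2.41 and the mitotic genes Nusap1 and Ccnb2 by -1.52 and -1.46 (adjusted p = 3.54e-10, 5.04e-06 and 3.36e-06). Against fresh progenitors, Axin2, Cldn1, Nid1 and Ldlrad4 lost their calls with probe sets averaged, Clic5 with only the arrays compared, and Tek with 5 of the 6 arrays left out in turn, with the deposited scaling, with only the arrays compared and with either RNA control as a covariate.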

How the results depend on the processing

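The counts against fresh progenitors, 3342 higher and 2726 lower, were 1203 and 1018 with a change of at least 2-fold also required, 2236 and 1722 when only the arrays compared were fitted, and 5175 and 4675 with every probe set tested on its own. With the deposited scaling they were 2730 and 3082 and with arrays centred on their medians 3430 and 2385. Leaving out 1 array at a time gave 2742 to 3243 higher and 2292 to 2685 lower genes. Between 48 h and 24 h BIO aggregates, 1464 higher and 2328 lower became 559 and 707 at 2-fold or more, 752 and 956 with only the arrays compared, 651 and 528 with the Gapdh ratio as a covariate, 832 and 684 with the beta-actin control as a covariate, and 2570 higher with every probe set; leaving out 1 array gave 1207 to 1334 and 1739 to 2216. Against aggregates moved to DMSO, 2021 higher and 1690 lower became 729 and 723 at 2-fold or more, 977 and 843 with only the arrays compared and 2589 lower with every probe set; leaving out 1 array gave 1485 to 1960 and 1423 to 1639. Fitting only the arrays compared leaves fewer residual degrees of freedom; the cause of the drop with the RNA controls was not tested. Replicate numbers were not used to pair samples in the main fit. The correlations of same-numbered deviations between 48 h BIO and fresh arrays were -0.105, -0.093 and -0.017. No 48 h BIO array there, or between the days, correlated best with its own number. Against aggregates moved to DMSO the correlations were 0.115, -0.039 and 0.196, and 2 of the 3 arrays correlated best with their own number. Whether arrays shared litters or cultures was not tested. With the replicate block, the 3 comparisons gave 3215 and 2624, 1378 and 2198, and 1921 and 1611 higher and lower genes. Of 173 named genes none turned direction against fresh progenitors in any setting, and up to 18 lost their call, that many with all probe sets averaged. Every setting but that average kept the chosen probe set of a named gene. Of 90 called genes with another probe set, 59 had one that passed the same way. Zeb1 had one that passed the opposite way (1.49 ± 0.47, adjusted p = 0.0266 in limma's test over all probe sets). Between the days 36 of the 173 named genes lost their call with the Gapdh ratio as a covariate. With the beta-actin control 27 did, and with only the arrays compared 21. Against aggregates moved to DMSO up to 21 lost theirs. In these comparisons 4 differences changed sign: Nid1 (0.24) and Zeb1 (0.72) between the days and Pfkp (0.32) against aggregates moved to DMSO with probe sets averaged, and Slc26a7 (0.013) between the days with the Gapdh ratio as a covariate; the cause was not tested. Genes near or under the background signal of 41.8 have uncertain changes, and 208 genes called against fresh progenitors had both means below it.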

Other observations

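Some genes were bright at 24 h of BIO while 48 h BIO aggregates and fresh progenitors both had means under background. Inka2, an inhibitor of PAK kinases, read 15.4, 7.77 and 5.58 in 48 h BIO aggregates, 179.5, 137 and 174 in 24 h BIO aggregates and 8.32, 9.66 and 8.65 in fresh progenitors, so that only the 24 h group was above background. The phospholipase gene Plcd4 had the same pattern, at 19.3, 16.6 and 13.6 in 48 h BIO aggregates, 339, 210.1 and 314 in 24 h BIO aggregates and 56.2, 18.4 and 22.3 in fresh progenitors, where 1 array was above background. The 48 h to 24 h differences passed limma's test (adjusted p = 8.13e-07 and 2.45e-07).

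A dip at 24 h appeared in Cdkn1c, the p57 inhibitor of cyclin-dependent kinases. It read 2319, 1941 and 1877 in 48 h BIO aggregates, 318, 319 and 365 in 24 h BIO aggregates and 2447, 2547 and 3237 in fresh progenitors. The 24 h arrays were all below the others (2.61 ± 0.22 for 48 h minus 24 h, adjusted p = 6.09e-07). Igfbp5, a binding protein of insulin-like growth factors, read 4697, 4552 and 4411 in 48 h BIO aggregates and 1175, 1029.8 and 1028 in 24 h BIO aggregates, against 9614, 9114 and 8853 in fresh progenitors (2.08 ± 0.10 for 48 h minus 24 h, adjusted p = 4.33e-09). Cdkn1c was chosen after its values were seen. The 24 h arrays of Igfbp5 were likewise the lowest, and its 48 h BIO arrays lay below the fresh ones. Another probe set of Igfbp5 had means of 420 in 48 h BIO aggregates and 287 in fresh progenitors. Its difference of 0.55 ± 0.24, in the other direction, did not pass limma's test over all probe sets (adjusted p = 0.110).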
